A study of Mus musculus with 4 samples.

Results

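Prg4, Clu, Cytl1, Ecrg4 and Smoc2 are 5 of the 32286 genes counted in single cells of the mouse spine. They were chosen by symbol as genes for proteins that cartilage cells secrete, several of them known from the cartilage surface, and all 5 were found in every count table. RNA of single cells was counted with the 3′ chemistry of 10x Genomics, in cells that carried the red fluorescent protein tdTomato (tdTom+) and had been sorted from the T11-L2 vertebrae. The question was how loss of the tumor suppressor Nf1 in the Prss56 lineage changes skeletal cells of young and old mice.

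The dataset held 4 libraries, 1 for each combination of genotype and age. Control mice were Prss56Cre/+;R26tdTom/tdTom;Nf1+/+ and mutant mice were Prss56Cre/Cre;R26tdTom/tdTom;Nf1fl/fl, each at 3 months and at 12-16 months of age. Every group therefore carried Cre at the Prss56 locus and the R26tdTom reporter, and since controls had 1 Cre allele and mutants 2, an effect of Cre dose and an effect of Nf1 cannot be told apart. Cre was driven by Prss56, which marks boundary cap cells and their descendants. By design, only traced cells lose Nf1 and only traced cells were sorted. Cells carrying CD11b, CD31 or CD45 and dead cells had been discarded in the sort. The number of mice behind each library is not given in the sources used here. The words control and mutant below stand for the libraries labelled so.

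The tables held 922, 542, 163 and 545 barcodes, in the order young control, young mutant (both 3 months), old control, old mutant (both 12-16 months), and this order is kept for all values below. Of these, 717, 484, 135 and 421 cells passed the filter on depth and mitochondrial RNA, with median depths of 11467, 12644, 11702 and 8189 unique molecular identifiers (UMIs, each standing for 1 captured RNA molecule). The old control library is by far the smallest, and 0 barcodes were shared between any 2 libraries. Nf1 itself was detected at 134 CPM (counts scaled to the total UMIs of the cells summed) in control and 159.8 CPM in mutant chondrocytes at 3 months, and at 145 and 124 CPM at 12-16 months. Counts taken at the 3′ end of the RNA do not read whether internal floxed exons were removed, so these values check neither label. A tdTomato UMI was found in 8.37%, 6.20%, 9.63% and 6.89% of passing cells, so the counts do not show that each cell was traced.

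Prg4 encodes lubricin, a mucin-like glycoprotein that coats the surface of articular cartilage and lowers friction, and its loss leads to early joint failure. Clu encodes clusterin, a secreted chaperone that binds misfolded proteins outside the cell. Cytl1 encodes a small cytokine-like protein made largely by cartilage, Ecrg4 a secreted precursor of small peptides that is abundant in articular cartilage, and Smoc2 a calcium-binding matrix protein of the SPARC family that modulates growth factor signals. In the spine, lubricin is known from the facet joints and from the intervertebral disc. Cartilage cells that proceed to hypertrophy switch on the transcription factor Runx2 and then mineralize their matrix.

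The genes are spread over 4 chromosomes of GRCm38 and all 5 are protein-coding. Prg4 (ENSMUSG00000006014) lies at chr1:150449412-150466165 on the minus strand, where its 3′ end overlaps the end of Tpr on the other strand by 524 bases. Ecrg4 (ENSMUSG00000026051) lies at chr1:43730602-43742578 on the plus strand and is named 1500015O10Rik in the annotation. Cytl1 (ENSMUSG00000062329) lies at chr5:37735519-37739820, Clu (ENSMUSG00000022037) at chr14:65968483-65981547 and Smoc2 (ENSMUSG00000023886) at chr17:14279506-14404790, all on the plus strand. An antisense gene overlaps Ecrg4 by 618 bases and another overlaps Smoc2 by 9830 bases, and 3′ libraries of this kind keep the strand.

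Lubricin owes its mucin-like character to a long repetitive stretch, which is shown here because the gene is the reference point of the comparisons below. The stretch covers bases 1417 to 1608 of the 3663 coding bases of the longest coding Prg4 transcript in GENCODE M21, read 5′ to 3′ on the coding strand. The capitals mark exact copies of the most frequent 24-base unit, of which the stretch holds 5 and the coding sequence 18 in frame.
Prg4 coding repeat: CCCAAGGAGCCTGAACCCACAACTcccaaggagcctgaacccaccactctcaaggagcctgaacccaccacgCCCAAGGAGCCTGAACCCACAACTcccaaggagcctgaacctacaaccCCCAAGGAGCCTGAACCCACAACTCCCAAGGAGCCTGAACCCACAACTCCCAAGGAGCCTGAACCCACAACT

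A promoter sequence from RefSeq (GRCm38.p6) was at hand for 2 of the 5 genes, and both are shown because Cytl1 was the most abundant of the genes in 3 of 4 libraries and Ecrg4 the one whose level in the old mutant stood apart. Each line gives the 250 bases before the gene start on the plus strand, at chr5:37735269-37735518 for Cytl1 and chr1:43730352-43730601 for Ecrg4. The capitals mark the TATA-like motif TATTTAAA, which begins 14 bases before the start of Cytl1 and was found in 1.7% of 32536 promoters. It was added to the search after the sequence had been read.
Cytl1 promoter: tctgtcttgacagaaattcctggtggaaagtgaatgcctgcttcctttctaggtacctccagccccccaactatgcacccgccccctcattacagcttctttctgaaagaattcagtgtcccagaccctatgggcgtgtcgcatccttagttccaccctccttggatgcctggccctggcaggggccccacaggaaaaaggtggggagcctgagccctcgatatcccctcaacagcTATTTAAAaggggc
Ecrg4 promoter: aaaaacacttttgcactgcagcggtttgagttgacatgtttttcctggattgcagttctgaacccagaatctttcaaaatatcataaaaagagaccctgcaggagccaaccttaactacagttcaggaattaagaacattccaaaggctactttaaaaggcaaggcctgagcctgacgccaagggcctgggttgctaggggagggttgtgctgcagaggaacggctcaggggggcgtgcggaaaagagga
The TATA motif TATAAA (in 12.3% of promoters), the Runx core ACCACA (14%) and the SOX core ACAATG (10.5%), searched on both strands, were not found in either window. The GC content was 54.8% for Cytl1 and 48.4% for Ecrg4.

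Chondrocytes were taken as passing cells with at least 1 UMI of Sox9, the master transcription factor of cartilage, and at least 3 UMIs of Acan, its main proteoglycan. They numbered 562, 377, 89 and 258, or 78.4%, 77.9%, 65.9% and 61.3% of the passing cells. The 6 chondrocyte markers were Sox9, Acan, Col2a1, Col9a1, Hapln1 and Matn3, of which Sox9 and Acan set the gate and had to be found. All 6 were found in each library, at 11309 to 13912 CPM in sum, and the 6 immune markers summed to 0.484 to 7.64 CPM. Since 3′ counting gives each molecule 1 UMI whatever its length, CPM are compared between genes without dividing by length. Intervals are exact 95% intervals that cover counting error only. With 1 library per group no test is possible, and no interval covers the spread between mice.

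In chondrocytes, Cytl1 and Prg4 were among the most abundant RNAs of the cell. Cytl1 reached 27609.7, 18018, 16216 and 21606 CPM, and it ranked 1, 5, 4 and 2 among all genes by UMIs. Prg4 reached 20874 CPM (20776 to 20973) in the 3-month control, 9550.1 (9471 to 9629.7) in the 3-month mutant, 17426 (17201 to 17654) in the 12-16-month control and 18939.5 (18780.4 to 19099.6) in the 12-16-month mutant. It thus stood within the first 7 genes of each library, and the 3-month mutant was low while the other 3 libraries lay close together.

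Ecrg4 came next at 4818, 2419, 4207 and 9248 CPM, and here the 12-16-month mutant stood highest and the 3-month mutant lowest. Clu was at 2073, 873, 1833 and 1791 CPM, again with the 3-month mutant alone at a low level. Smoc2 was the least abundant of the 5 at 405, 171, 596 and 452 CPM. The order Cytl1, Prg4, Ecrg4, Clu, Smoc2 held in 3 libraries, and in the 12-16-month control Prg4 was above Cytl1.

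The share of chondrocytes with a UMI was lowest in the 3-month mutant for Prg4, Clu, Cytl1 and Smoc2, whereas for Ecrg4 it did not follow the level. For Prg4 it was 80.4%, 53.3%, 78.7% and 73.3%, and after each cell was thinned to 4000 UMIs it was 75.6%, 45.1%, 70.1% and 71.4%, with 13, 3, 8 and 27 shallower chondrocytes left out. Cytl1 was found in 97.9%, 93.4%, 97.8% and 98.1% of chondrocytes, so the libraries differed in its level per cell more than in the share of cells. At 4000 UMIs the shares were 85.3%, 53.2%, 78.9% and 70.1% for Clu, 71.3%, 70.7%, 67.7% and 88.3% for Ecrg4, and 49.3%, 29.3%, 66.2% and 56.9% for Smoc2. Without thinning they were 90.04%, 61.8%, 84.3% and 74.8% for Clu, 81.9%, 81.2%, 78.7% and 90.7% for Ecrg4, and 64.1%, 39.3%, 71.9% and 65.5% for Smoc2.

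Prg4 was spread very unevenly between chondrocytes. The cells ranged from 0 to 4209, 2673, 2801 and 5202 UMIs of Prg4, with medians of 60.5, 1, 30 and 53. The tenth of cells with most Prg4 held 56.2%, 71.8%, 57.7% and 58.4% of all its UMIs, against 32.7%, 32.5%, 34.1% and 36.1% for Cytl1. Ecrg4 was as uneven as Prg4, at 66.3%, 58.5%, 53.4% and 49.7%. In the most loaded cells lubricin was a large part of the transcriptome, since the highest value of a single cell was 179691, 142836, 208253 and 228700 CPM.

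To place the genes outside cartilage, the chondrocytes were compared with cells that had at most 2 Acan UMIs and at least 1 Runx2 UMI, a gate meant to hold bone and stromal cells. There were 45, 39, 27 and 83 such cells. Their 8 osteoblast and osteocyte markers summed to 82554, 8814, 136788 and 45466 CPM, against 11.4, 5818, 912 and 2586 CPM for the 6 immune markers, so in the 3-month mutant the gate held little bone RNA and much immune RNA. Runx2, which set the gate, is among the 8 bone markers. The gated cells are called Acan-low Runx2+ cells here.

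All 5 genes were higher in chondrocytes than in Acan-low Runx2+ cells in all 4 libraries. By a rule that asks for a ratio past 1.5 with an interval excluding 1, among genes with at least 20 UMIs over both sides, 20 of 20 values were called higher. The same rule called 18.1%, 20.3%, 22.5% and 15.6% of all tested genes higher in chondrocytes. Prg4 was at 16.5 CPM (8.77 to 28.2) in Acan-low Runx2+ cells of the 3-month control, 13.9 (7.19 to 24.3) in the 3-month mutant, 38.4 (25.5 to 55.5) in the 12-16-month control and 16.5 (9.44 to 26.8) in the 12-16-month mutant. Its ratios of 1268, 686, 454 and 1147 were the widest of the 5 genes except in the 3-month mutant, where Cytl1 stood slightly higher. Cytl1 gave 436, 706, 121 and 805.

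Clu in all 4 libraries, and Smoc2 in all but the 3-month mutant, gave narrower ratios than the other 3 genes. Clu was at 169.8, 66.1, 155 and 177.5 CPM in Acan-low Runx2+ cells, with ratios of 12.2, 13.2, 11.8 and 10.1. It was detected in 51.1%, 25.6%, 55.6% and 55.4% of these cells. Ecrg4 lay at 36.7, 17.4, 32.9 and 47.5 CPM, with ratios between 128 and 195. Smoc2 lay at 58.3, 1.16, 32.9 and 16.5 CPM, with ratios of 6.95, 147, 18.1 and 27.4, where the 3-month mutant value rests on 1 UMI and its ratio has an interval from 26.4 to 5819.

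Cells with a UMI of the leukocyte gene Ptprc and none of Acan or Runx2 served as a guide to how much of these RNAs can reach a droplet from outside. Asking for 0 Acan UMIs leaves out droplets that took up free Acan RNA, so this guide may be too low. There were 11, 19, 0 and 22 of them, with median depths of 1242, 9359 and 4997.5 UMIs in the 3 libraries that held any. Prg4 had 0, 4 and 9 UMIs in them, or 22.7 CPM (6.2 to 58.2) in the 3-month mutant and 43.0 (19.7 to 81.7) in the old mutant, and their share with a Prg4 UMI was 0%, 15.8% and 40.9%. In Acan-low Runx2+ cells the shares were 26.7%, 25.6%, 40.7% and 16.9%. In both mutant libraries the Prg4 level of Acan-low Runx2+ cells was below that of the Ptprc cells, with overlapping intervals. It was thus not shown to exceed the background there, and whether it is background was not tested. In the 3-month control 0 Prg4 UMIs in the Ptprc cells allow up to 194 CPM, so the background is not bounded closely, and in the 12-16-month control there is no cell to set it by. Cytl1 was at 105, 28.4 and 19.1 CPM in the Ptprc cells and at 63.3, 25.5, 134 and 26.8 CPM in Acan-low Runx2+ cells. Clu had 0, 0 and 9 UMIs in the Ptprc cells and Smoc2 had 0 UMIs in all 3. For Clu the Acan-low Runx2+ level exceeded the Ptprc level with separate intervals in both mutant libraries. In the old mutant 7 of the 9 Clu UMIs of the Ptprc cells lay in 1 cell. Median depths of the Acan-low Runx2+ cells were 12125, 13646, 21222 and 9089 UMIs.

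**Figure D1:**
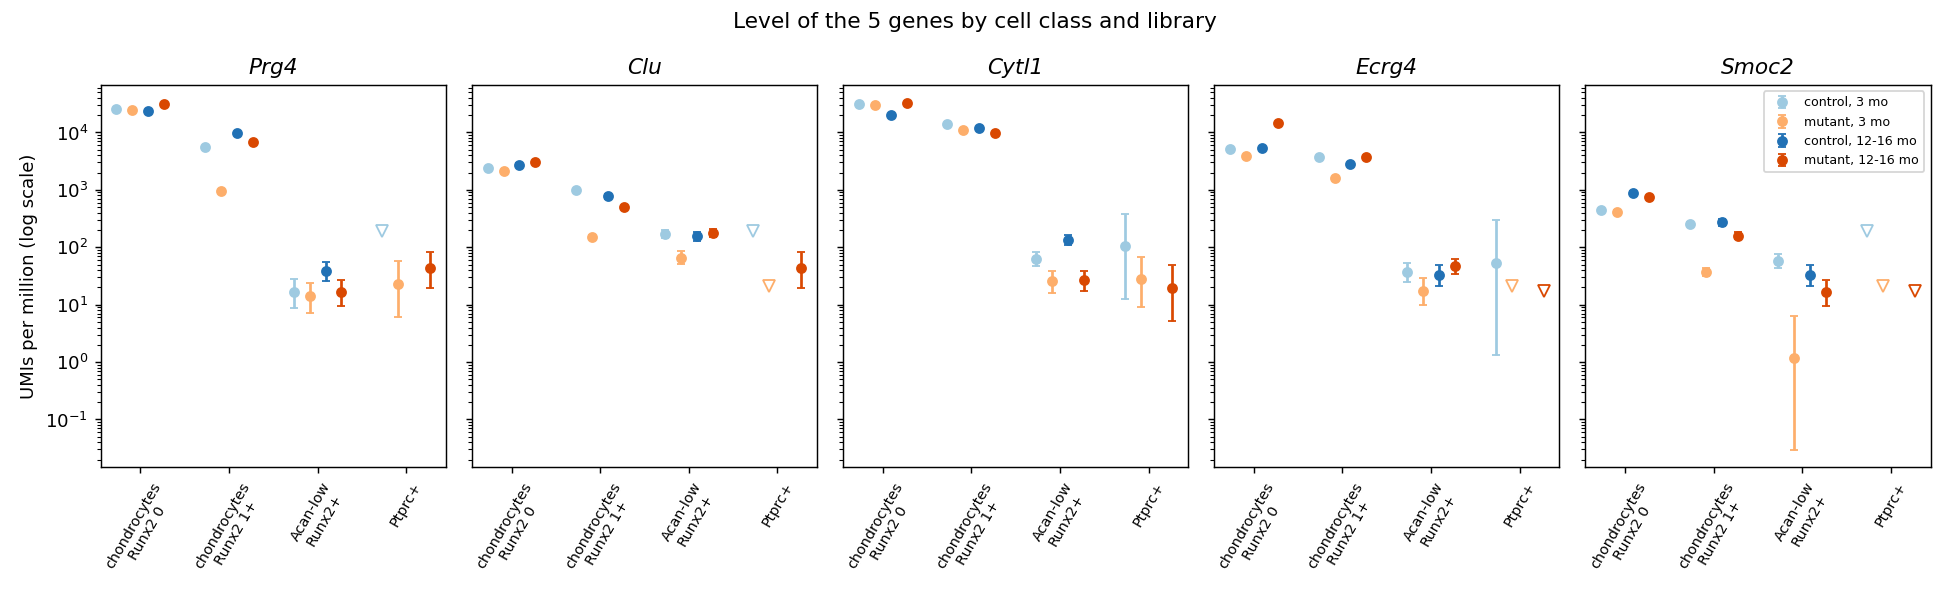
Level of each of the 5 genes in CPM on a log axis, in chondrocytes without (Runx2 0) and with (Runx2 1+) a Runx2 UMI, in Acan-low Runx2+ cells and in Ptprc+ cells, with 1 point per library and bars for the exact 95% Poisson interval. Open triangles are upper bounds where the class had 0 UMIs, and the 12-16-month control held 0 Ptprc+ cells. Prg4 falls from 24101 CPM or more in Runx2 0 chondrocytes to 38.4 CPM or less in Acan-low Runx2+ cells.

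A few cells outside both gates held Prg4 as well. Of the 99, 49, 19 and 58 remaining cells, 7, 9, 3 and 13 had at least 10 Prg4 UMIs, and of these 7, 9, 2 and 12 had an Acan UMI. Col2a1 was found in 6, 7, 3 and 7 of them, but Sox9 in only 3, 2, 0 and 4. Most of these cells thus held some cartilage RNA, and whether they are chondrocytes that missed the gate was not tested.

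Among chondrocytes the summed levels of the 5 genes divided along Runx2. Chondrocytes without a Runx2 UMI numbered 468, 184, 65 and 176, and those with at least 1 numbered 94, 193, 24 and 82. The endplate genes Kcnd2, Zfp804b and Dab1 summed to 3.75, 10.5, 4.30 and 2.08 CPM without Runx2. With it they summed to 275, 1641, 224 and 983 CPM. The disc genes Cilp2, Sfrp5, Adamtsl2, Chrdl2 and Meox2 summed to 838, 676, 720 and 938 CPM without Runx2. With it they summed to 412, 123, 301 and 231 CPM. How much of the split lies between disc and endplate cells was not tested. Prg4 was at 25309, 24889, 24101 and 30825 CPM without Runx2 and at 5575, 959, 9810.4 and 6913 CPM with it, so the ratio was 4.54 (4.45 to 4.63), 25.9 (25.1 to 26.8), 2.46 (2.39 to 2.53) and 4.46 (4.36 to 4.56). Without Runx2 the summed levels lay close together over the 4 libraries. The median cell of that class was at 7307, 9168, 6606 and 18965 CPM, highest in the old mutant. With Runx2 the summed levels ranged widely, lowest in the 3-month mutant. In the class with Runx2 these levels rest on few cells, since its medians were 0, 0, 1 and 0 Prg4 UMIs and the tenth of cells with most Prg4 held 88.9%, 99.3%, 71.4% and 96.7% of them. The single highest cell held 38.0%, 45.9%, 42.8% and 52.9%, and without it, an alternative chosen after the data were seen, the class was at 3514, 523, 6077 and 3309.7 CPM and the ratio at 7.20, 47.6, 3.97 and 9.31.

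Clu and Smoc2 split in the same direction. Clu was at 2389, 2166, 2763 and 3073 CPM without Runx2 and at 979, 149, 773 and 493 CPM with it, and the 773 CPM was 492 without the cell with most Clu. Smoc2 was at 449, 409.8, 881 and 742 CPM without Runx2 and at 253, 36.8, 272 and 159 CPM with it. Cytl1 was at 31581, 30449, 19760.3 and 33205 CPM without Runx2 and at 13909, 11055, 12172 and 9868 CPM with it, and its ratios of 2.27, 2.75, 1.62 and 3.36 were narrower than those of Prg4, Clu and Smoc2 except for Smoc2 in the 3-month control, at 1.77. Ecrg4 was at 5144, 3863, 5451 and 14645 CPM without Runx2 and at 3694, 1609, 2787 and 3787 CPM with it. Its median cell was at 615, 821, 597 and 5899 CPM without Runx2 and at 1257, 781, 2015 and 1837 CPM with it. In both controls the median cell was thus higher with Runx2, against the direction of the sums.

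By the rule above, 19 of 20 values were called higher without Runx2, where 9.66%, 15.1%, 10.7% and 11.8% of all tested genes were called higher and 17.6%, 27.6%, 14.7% and 22.0% lower. The exception was Ecrg4 in the 3-month control, with a ratio of 1.39 (1.36 to 1.43), which was 1.69 without the cell that held most Ecrg4. Ecrg4 also reached 10 or more UMIs in a larger share of chondrocytes with Runx2 than without it, at 68.1% against 45.1% and 59.1% against 47.3% in control and mutant at 3 months and at 83.3% against 43.1% in the 12-16-month control, while both shares were near 72% in the old mutant. Chondrocytes with a Runx2 UMI were deeper, with medians of 17649, 17832, 25178 and 15820.5 UMIs against 11984, 10296, 9666 and 7092 UMIs. At 4000 UMIs per cell Prg4 was found in 83.5%, 81.3%, 82.4% and 96.0% of chondrocytes without Runx2. With Runx2 it was found in 37.2%, 10.7%, 39.1% and 22.1%. For Ecrg4 these shares were 69.0%, 69.0%, 61.0% and 89.1% without Runx2 and 82.6%, 72.4%, 84.3% and 86.7% with it. The Runx2 classes were set at full depth, and the part of depth in that step was not tested. A few chondrocytes with a Runx2 UMI carried much Prg4, since 12, 7, 7 and 9 of them held 100 or more Prg4 UMIs. In these the median Runx2 count was 2, 1, 1 and 1, against 7, 14, 13 and 10.5 in Runx2-positive chondrocytes with fewer than 10 Prg4 UMIs.

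At 3 months the summed levels of all 5 genes were lower in mutant than in control chondrocytes. The mutant to control ratio was 0.458 (0.453 to 0.462) for Prg4, 0.421 (0.408 to 0.435) for Clu, 0.653 (0.648 to 0.657) for Cytl1, 0.502 (0.492 to 0.512) for Ecrg4 and 0.422 (0.392 to 0.453) for Smoc2. All 5 were called lower, in a comparison that called 13.7% of 13273 tested genes lower and 20.3% higher. When each cell was given the same weight in place of each UMI, 4 were called and Cytl1, at 0.724, was not. For Ecrg4 the median cell was not lower, at 809 CPM in the mutant and 745 CPM in the control. Its difference lay in the most loaded cells, since 10.1% of mutant and 17.8% of control chondrocytes held 100 or more Ecrg4 UMIs.

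This difference went with the share of Runx2-positive cells, which made up 16.7% (13.7% to 20.1%) of control and 51.2% (46.0% to 56.3%) of mutant chondrocytes at 3 months. Within chondrocytes without a Runx2 UMI the ratios were 0.983 for Prg4, 0.907 for Clu, 0.964 for Cytl1, 0.751 for Ecrg4 and 0.913 for Smoc2, and 0 of 5 were called, where 8.21% of tested genes were called lower and 6.71% higher. Setting the 2 classes of the mutant to the proportions of the control gave 0.90, 0.797, 0.924, 0.683 and 0.777. These ratios carry no interval, all 5 stayed below 1, and 0 of 5 were past 1.5-fold. The levels of 4 genes were, however, lower in the mutant within the Runx2-positive chondrocytes, at 0.172 for Prg4, 0.152 for Clu, 0.436 for Ecrg4 and 0.145 for Smoc2, where 14.3% of tested genes were called lower and 14.7% higher. Without the cell with most Prg4 of the mutant or of the control the Prg4 ratio was 0.0937 or 0.273. Cytl1, at 0.795, was not called there. Whether the mutant cartilage held more Runx2-positive cells or the sort and digestion released more of them cannot be told apart with 1 library per group.

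Markers of fibroblasts and tendon moved in the same direction. The list of Dcn, Dpt, Gsn, Scx and Tnmd summed to 10496 CPM in control and 4616 CPM in mutant chondrocytes at 3 months, and to 12819 and 12732 CPM at 12-16 months. Of the 5 markers, 4, 5, 4 and 4 had a UMI, and the tendon marker Tnmd was at 0 except in the 3-month mutant, where it was at 0.171 CPM. The synovial lining list of Cd55, Pdpn, Thy1, Clic5 and Has1 summed to 72.9, 12.5, 71.1 and 52.4 CPM, with 5, 4, 2 and 4 of its genes detected, and Thy1 was at 0 except in the 3-month control, where it was at 0.363 CPM. The part of these markers in the result was not tested.

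At 12-16 months the picture was different, and 1 of 5 genes was called. Ecrg4 was higher in mutant chondrocytes at a ratio of 2.20 (2.14 to 2.26), where 5.75% of 11031 tested genes were called higher and 6.92% lower. Prg4 was at 1.09 (1.07 to 1.10), Clu at 0.977 (0.931 to 1.03, and on the other side of 1 with TMM scaling), Cytl1 at 1.33 (1.31 to 1.35) and Smoc2 at 0.758 (0.693 to 0.83). Here the Runx2-positive share was 27.0% (18.1% to 37.4%) in control and 31.8% (26.1% to 37.8%) in mutant chondrocytes.

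The higher Ecrg4 level of the old mutant was seen within chondrocytes without Runx2, at 2.69 (2.60 to 2.78), and at 1.36 (1.29 to 1.44) within those with it. Among chondrocytes without Runx2, 72.2% of cells held 10 or more Ecrg4 UMIs in the old mutant, against 45.1%, 47.3% and 43.1% in the other 3 libraries, although the old mutant was the shallowest. The median Ecrg4 level per cell was 5899 CPM there, against 615, 821 and 597 CPM. Cytl1 was also called in this class, at 1.68 (1.65 to 1.71), where 4.19% of tested genes were called higher and 7.95% lower. Within Runx2-positive chondrocytes of the old mice Clu, at 0.639, and Smoc2, at 0.585, were called lower, where 6.96% of tested genes were called lower and 7.85% higher. Without the cell with most UMIs of the gene among the 24 of the old control, these ratios were 1.00 and 0.785 and neither was past 1.5-fold, while Ecrg4 was at 1.55.

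**Figure D2:**
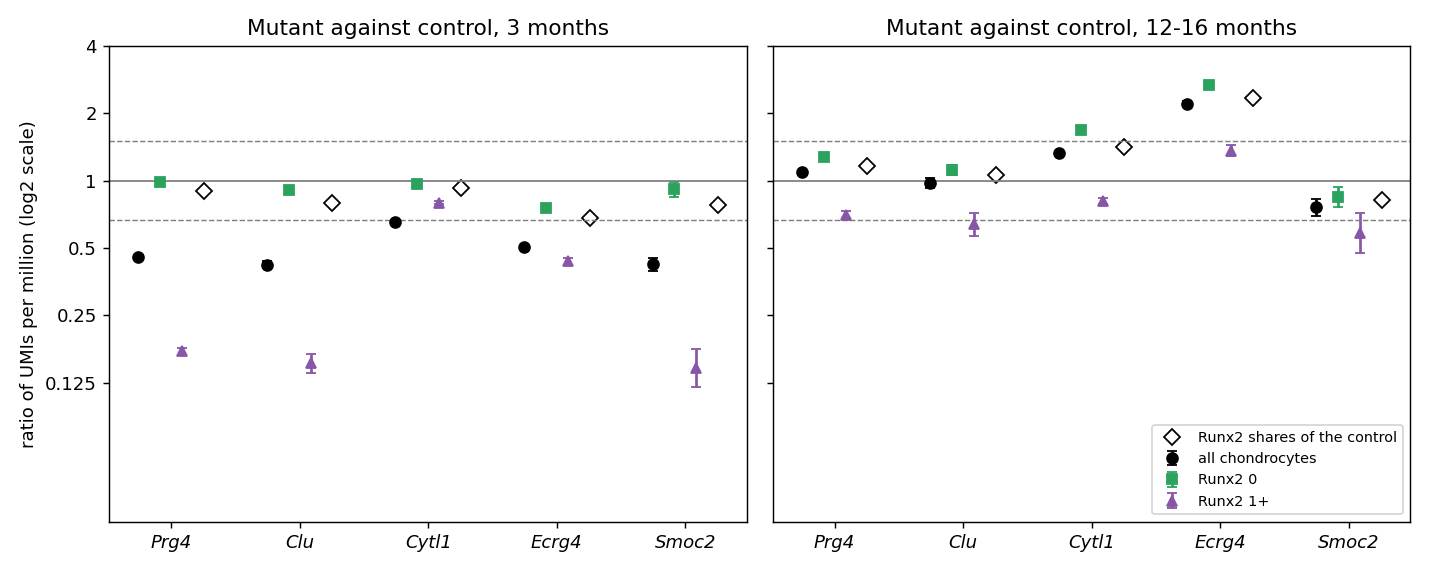
Mutant to control ratio of CPM on a log2 axis for the 5 genes at each age, in all chondrocytes, in those without and with a Runx2 UMI, and with the Runx2 classes of the mutant set to the proportions of the control. Bars are 95% counting intervals, the solid line is a ratio of 1 and the dashed lines mark 1.5-fold. At 3 months the filled circles lie between 0.421 and 0.653 while the squares lie between 0.751 and 0.983. At 12-16 months Ecrg4 alone is past 1.5-fold over all chondrocytes. Within the Runx2 classes, Ecrg4 and Cytl1 without Runx2 and Clu and Smoc2 with it are past 1.5-fold at that age.

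Age was read in each genotype from the same 4 libraries, so these ratios share libraries with those above. In controls Cytl1 was lower at 12-16 than at 3 months, at 0.587 (0.579 to 0.596), and was the 1 gene called, where 5.57% of 12424 tested genes were called lower and 11.6% higher. The other ratios were 0.835 for Prg4, 0.884 for Clu, 0.873 for Ecrg4 and 1.47 for Smoc2. With each cell given the same weight, Smoc2, at 1.71, was called higher in place of Cytl1, at 0.766.

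In mutants 4 of 5 genes were called higher at 12-16 months, where 10.4% of 12445 tested genes were called higher and 11.4% lower. Ecrg4 was at 3.82 (3.75 to 3.90), Smoc2 at 2.65 (2.44 to 2.88), Clu at 2.05 (1.97 to 2.13) and Prg4 at 1.98 (1.96 to 2.01), and Cytl1 was at 1.20 (1.19 to 1.21). The Runx2-positive share of mutant chondrocytes was 51.2% at 3 months and 31.8% at 12-16 months. Within chondrocytes without Runx2, Ecrg4 was at 3.79 (3.70 to 3.89) and Smoc2 at 1.81 (1.65 to 1.98), both called higher, while Prg4 was at 1.24 and Clu at 1.42. There 7.4% of tested genes were called higher and 7.94% lower. In controls the same class gave 1.96 (1.79 to 2.14) for Smoc2 and 0.626 (0.615 to 0.637) for Cytl1, both called, where 9.35% of tested genes were called higher and 5.3% lower. Within chondrocytes with Runx2, Prg4 was higher at 12-16 months at 1.76 in controls and 7.21 in mutants. Without the cell with most Prg4 in the old library the ratios were 1.09 and 3.45, and without that of the young library 2.79 and 13.2. The class called 7.56% of tested genes higher and 7.51% lower in controls, and 12.6% higher and 11.4% lower in mutants, and it holds only 24 cells in the old control.

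The 5 genes were found together in the same chondrocytes. Cells with a UMI of all 5 made up 50.4% (46.1% to 54.6%), 26.5% (22.1% to 31.3%), 51.7% (40.8% to 62.4%) and 52.3% (46.0% to 58.6%) of chondrocytes. Among chondrocytes without Runx2 this share was 55.3%, 48.9%, 61.5% and 69.3%, and with Runx2 it was 25.5%, 5.18%, 25% and 15.9%. Chondrocytes with fewer than 10 UMIs of each of the 5 genes were rare, at 13, 25, 1 and 10 cells. The shares with all 5 were taken at full depth, with no share expected from each gene alone beside them. The part of free RNA in them was not tested.

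Detection of 1 gene went with detection of another. At 4000 UMIs per cell, the share of cells with both genes of a pair exceeded the product of the 2 shares in 34 of 40 pairs by library, with a range from 0.941 to 1.74 for the quotient. For Prg4 with Clu the quotient was 1.10, 1.66, 1.19 and 1.32, and for Prg4 with Smoc2 it was 1.14, 1.74, 1.17 and 1.31. The quotients of Cytl1 stayed near 1, from 0.981 to 1.10, as a gene found in nearly all cells leaves little room. At 10 or more UMIs of each gene, a limit added after the data were seen, 38 of 40 quotients were above 1, up to 2.25 for Clu with Smoc2 in the 3-month mutant. Among chondrocytes without Runx2 the quotient of Prg4 with Clu at 4000 UMIs was 1.01, 1.03, 1.03 and 1.01. Clu was in 93.3%, 89.2%, 94.1% and 93.3% of these cells at that depth, which leaves little room above 1. At 10 or more UMIs it was 1.10, 1.17, 1.13 and 1.11 there. Prg4 with Ecrg4 at 4000 UMIs gave 1.09, 1.07, 1.09 and 1.00 without Runx2, against 1.06, 1.03, 1.00 and 1.02 over all chondrocytes. The part of the Runx2 classes in the excess was thus not settled. Among chondrocytes with Runx2 the quotient of Prg4 with Clu at 4000 UMIs was 1.84, 3.23, 1.91 and 3.18. Both genes were found in 31.6%, 6.60%, 30.3% and 16.7% of these cells, and Prg4 in 37.2%, 10.7%, 39.1% and 22.1%. Most of the cells with Prg4 thus carried Clu as well.

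Spearman's rho of the levels over cells was positive for all 40 pairs by library, from 0.15 to 0.69. It is given as a description without a test, since the 562, 377, 89 and 258 cells of a library share that library and differ in depth. Prg4 with Cytl1 had the highest median over libraries, 0.63, followed by Prg4 with Clu at 0.59, and the pairs of Ecrg4 had medians from 0.27 to 0.41. Among chondrocytes without Runx2, Prg4 and Ecrg4 gave 0.58, 0.46, 0.50 and 0.37, and Prg4 and Clu gave 0.17, 0.32, 0.29 and 0.33. Among those with Runx2 the order turned, with 0.11, -0.03, 0.12 and 0.22 for Prg4 and Ecrg4 and 0.69, 0.34, 0.59 and 0.61 for Prg4 and Clu. The 12-16-month control had only 24 Runx2-positive chondrocytes, so its values in that class are the least certain.

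**Figure D3:**
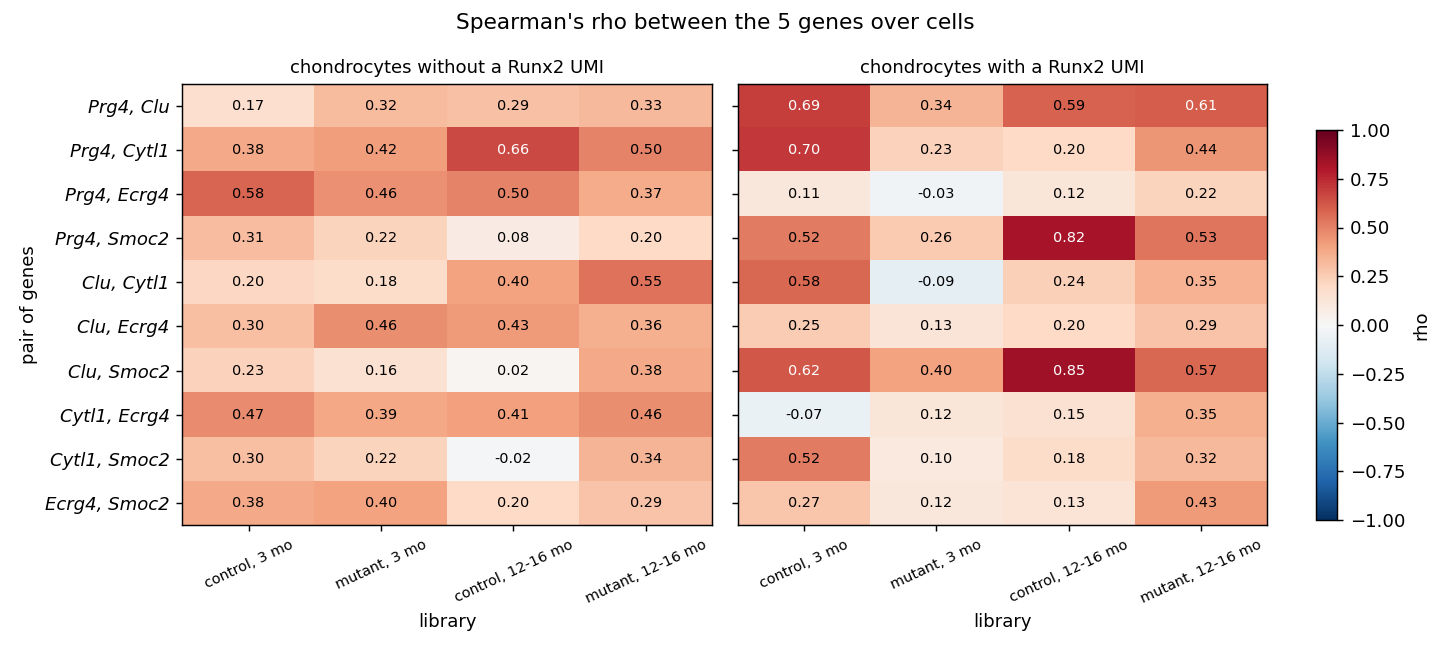
Spearman's rho between the levels of each pair of the 5 genes over chondrocytes without (left) and with (right) a Runx2 UMI, with 1 column per library. Prg4 and Ecrg4 run from 0.37 to 0.58 without Runx2 and from -0.03 to 0.22 with it, and Prg4 and Clu from 0.17 to 0.33 and from 0.34 to 0.69.

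Ordering the chondrocytes by their own Prg4 UMIs showed the same along a scale. Cells with fewer than 10 numbered 192, 237, 39 and 94, cells with 10 to 99 numbered 127, 41, 18 and 64, and cells with 100 or more numbered 243, 99, 32 and 100. From the lowest to the highest class, Clu went from 1087 to 2695 CPM in the 3-month control, from 246 to 2617 in the 3-month mutant, from 762 to 2887 in the 12-16-month control and from 168 to 3579 in the 12-16-month mutant. For Clu the highest classes of the 4 libraries were thus closer to each other than the lowest, which was not so for Ecrg4. Ecrg4 went from 1595 to 6584, from 1497 to 5394, from 1591 to 7457 and from 2310.1 to 17538 CPM. Runx2 went the other way, from 374 to 23.0 CPM, from 796 to 6.59, from 434 to 41.4 and from 913 to 12.6. A class of high Prg4 UMIs holds deeper cells, with medians of 15050.0 against 9637.5 UMIs in the 3-month control, but in both mutants the class of fewer than 10 was the deeper, at 15694 against 12824 and at 12679 against 8829 UMIs.

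**Figure D4:**
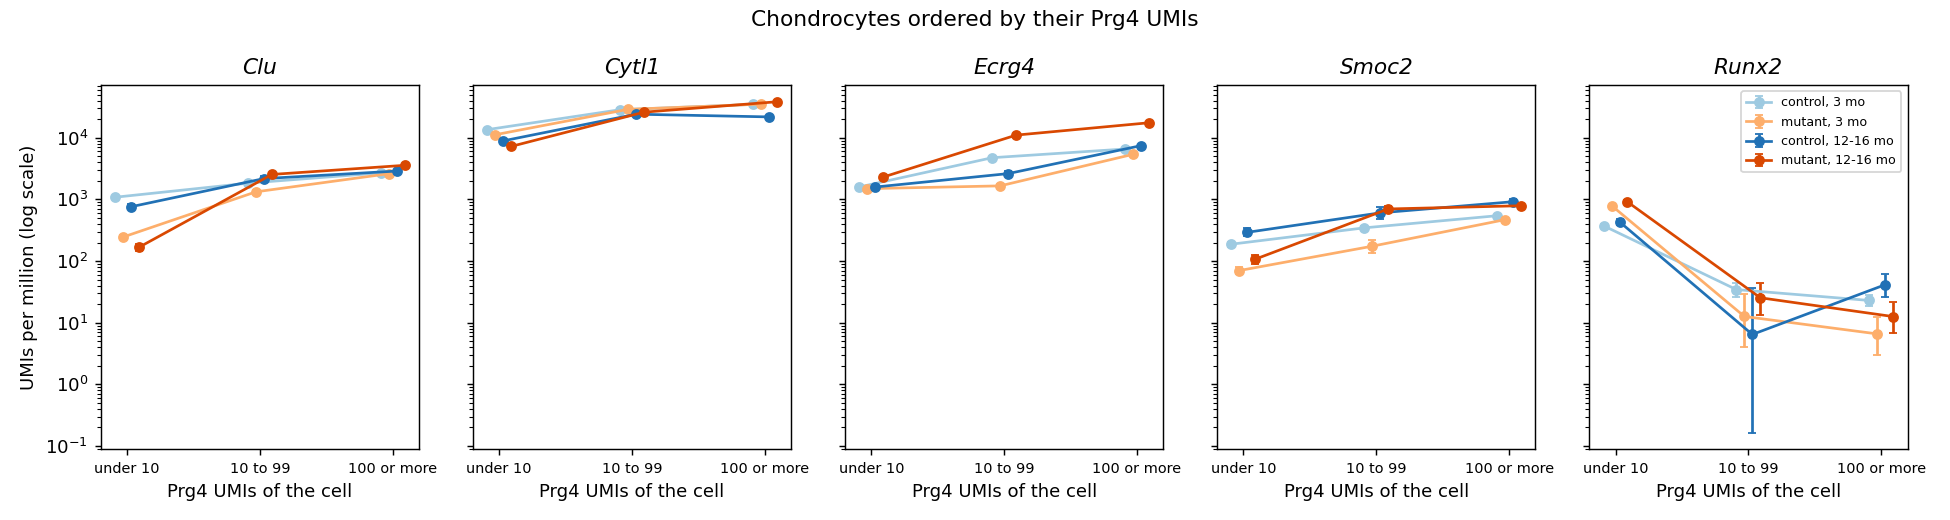
Levels of Clu, Cytl1, Ecrg4, Smoc2 and Runx2 in CPM on a log axis, in chondrocytes with fewer than 10, 10 to 99 and 100 or more Prg4 UMIs, with 1 line per library and bars for the 95% Poisson interval. Clu, Ecrg4 and Smoc2 rise from the first class to the last in each library, and Runx2 drops from between 374 and 913 CPM to between 6.59 and 41.4 CPM.

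The genes most like each member were sought among 7912 genes found in at least 10% of the chondrocytes of every library, by the mean of rho over the 4 libraries. For Prg4 they were Dcn (0.60), the matrix gene Abi3bp (0.59), S100a6 (0.57), Gas1 (0.57) and Cilp (0.56), an intermediate-layer protein of cartilage. For Clu they were Gas1 (0.62), S100a6 (0.61), the actin-severing gelsolin gene Gsn (0.60), the large proteoglycan gene Vcan (0.59) and Ntn4 (0.56). For Cytl1 they were S100a6 (0.58), Cilp2 (0.52), Fxyd5 (0.50), Cilp (0.50) and Gas1 (0.50). For Smoc2 they were Gas1 (0.43), Gsn (0.42), Dcn (0.41), S100a6 (0.40) and S100b (0.39). Gas1 and S100a6 were therefore shared by the lists of Prg4, Clu, Cytl1 and Smoc2.

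The values for Ecrg4 were weaker, and of its list only Dcn was also in another, those of Prg4 and Smoc2. It held Gm29157 (0.39), the protease inhibitor gene Serpine2 (0.36), Prelp (0.34), Gpx3 (0.34) and Dcn (0.34). Gm29157 is a lincRNA gene at chr1:43742915-43743526 that starts 337 bases past the end of Ecrg4 on the same strand, and whether its reads come from longer Ecrg4 RNAs was not tested. Runx2 gave a mean rho of -0.52 with Prg4, -0.57 with Clu, -0.45 with Cytl1 and -0.41 with Smoc2, each negative in all 4 libraries. It was looked at as a gate gene, and it was not the lowest gene with any of these 4. With Ecrg4 Runx2 gave 0.08, -0.16, 0.11 and -0.30.

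Lubricin is known to be controlled by TGF-beta, by the EGF receptor and by the transcription factors Creb5, Foxo1, Foxo3 and Erg. Of 13 such regulators tested at 3 months, 3 were called higher and 2 lower in mutant chondrocytes, with a median log2 ratio of 0.20 against 0.08 for all tested genes. Of all tested genes 20.3% were called higher and 13.7% lower, so the counts of this list are near those shares. Creb5, a factor needed for Prg4 in articular cartilage, was called lower at 142 against 246 CPM, and Egfr at 10.1 against 16.2 CPM. Tgfb2, a TGF-beta ligand, was called higher at 72.5 against 15.9 CPM, as were Tgfb3 and Foxo3. Within chondrocytes without Runx2 3 were higher and 0 lower, where 6.71% of all tested genes were called higher and 8.21% lower. At 12-16 months 2 of 13 were called higher and 0 lower, where 5.75% of all tested genes were called higher and 6.92% lower. The same shares of all tested genes apply to the counts of the lists below.

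A pair of regulators split along Runx2 in every library, in opposite directions. Creb5 was at 291, 356, 278 and 294 CPM without Runx2 and at 90.5, 22.2, 130.9 and 71.0 CPM with it, called each time, so that it lay on the side of Prg4. Tgfb2 was at 2.81, 1.43, 11.5 and 4.86 CPM without Runx2 and at 60.9, 112, 75.3 and 85.7 CPM with it.

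Of 9 other genes of the cartilage surface and of joints, 1 was called higher and 7 lower in the 3-month mutant, with a median log2 ratio of -1.13. Within chondrocytes without Runx2 1 was higher and 2 were lower, and at 12-16 months 0 were higher and 1 of 8 tested was lower. Abi3bp was the one called in the same direction at both ages, at 863 against 2102 CPM and at 1024 against 1570.2 CPM. Gdf5, a growth factor of joint formation, was at 5.99 against 22.0 CPM at 3 months. Vit (vitrin) went against the list, at 320 against 47.7 CPM at 3 months, and it was lower in chondrocytes without Runx2 in each library. Its rho with Prg4 was -0.20, -0.59, -0.41 and -0.33. The 5 genes of the disc list, which shares Cilp2 with the surface list, were all called lower at 3 months, with a median log2 ratio of -1.16, and 2 were called lower without Runx2. Chrdl2 from this list, a secreted BMP inhibitor, was called lower at both ages, at 38.8 against 86.8 CPM and at 56.2 against 102 CPM.

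Smoc2 belongs to the SPARC family, and its relatives did not follow it as a group. Of 5 relatives tested at 3 months, 1 was higher and 2 were lower, and at 12-16 months 0 of 4 were higher and 2 were lower. Sparcl1 was called lower at both ages, at 48.2 against 135 CPM and at 73.0 against 149 CPM. Sparc, the collagen-binding founder of the family, was at 15207 against 12787 CPM at 3 months and was not called. It was lower in chondrocytes without Runx2 in each library, at 10850.0, 6662, 6039 and 7102 CPM against 19471, 19992, 14963 and 20420.1 CPM. The closest relative, Smoc1, lay on the side of Smoc2, at 168, 239, 148 and 179 CPM without Runx2 and 71.6, 17.9, 67.1 and 61.1 CPM with it.

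Receptors of these proteins were present at low levels. Of 7 listed, 4 could be tested at 3 months, of which 1 was higher and 2 were lower, and at 12-16 months 0 of 4 were called. Trem2 and Ccr2 had 0 UMIs in the chondrocytes of all 4 libraries. Vldlr, which binds clusterin, was called higher at 28.9 against 9.08 CPM at 3 months. Tlr2, which lubricin can bind, was called lower at 9.58 against 18.8 CPM.

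Over all chondrocytes most genes of the hypertrophy list were called higher in the mutant at both ages, while the members were lower at 3 months and 1 of 5 was higher at 12-16 months. Of 8 genes, 5 were called higher and 1 lower in the mutant at 3 months, and all 8 higher at 12-16 months, with median log2 ratios of 1.36 and 1.98. Within chondrocytes without Runx2 at 3 months 2 of 6 tested were higher and 3 lower. In those with Runx2 the list summed to 12511.5 CPM in control and 5523 CPM in mutant at 3 months, so its sum was lower. At 12-16 months these sums were 2465 and 9079 CPM. A sum follows the most abundant genes and need not show most of the list. Without Runx2 at 3 months the sum was 1467 CPM in control and 2798 CPM in mutant, with more genes called lower than higher. Over all chondrocytes the list summed to 3949 and 4545 CPM at 3 months and to 2001 and 6994 CPM at 12-16 months. The receptor gene Pth1r was at 786 against 219 CPM and at 590 against 309 CPM, and the channel gene Panx3 at 119 against 31.1 CPM and at 85.9 against 45.1 CPM. Ihh, Prkg2 and Alpl were also called higher at both ages. The endplate genes Kcnd2 and Zfp804b were called higher at both ages, Kcnd2 at 171 against 7.75 CPM and at 328 against 38.2 CPM, and these lists were chosen with earlier results of these libraries known. In the list of 12 stress genes, which digestion can induce, 7 were called lower and 1 higher at 3 months and 1 each way at 12-16 months, where Socs3 was lower and Hspa1b higher at both ages. Their part in the result was not tested. Fos, an early response gene, gave a rho of -0.28, -0.20, -0.39 and -0.05 with Ecrg4.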

How the data were processed

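For each library the authors deposited a matrix of raw UMI counts, produced by Cell Ranger 8.0.0 against mm10 with tdTomato added. In the study free RNA was corrected with SoupX, which was not repeated here. Cells with over 750 UMIs, over 500 genes and under 7% mitochondrial UMIs were kept, and the study's removal of immune, smooth muscle and endothelial cells was left out. Scrublet (scanpy 1.11.5, expected rate 6%) marked 2, 4, 9 and 4 cells as doublets, which were kept in.

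UMIs were summed per library and class and scaled to CPM in Python 3.11.15 (scipy 1.17.1, numpy 2.4.6, pandas 2.3.3). Intervals were exact Poisson, conditional binomial for ratios and Clopper-Pearson for shares. Passing cells held from 2154537 to 9429264 UMIs per library. On simulated counts the rule for calls recovered 96% to 100% of 200 changed genes and called 1.37% to 2.33% of unchanged ones. The simulation held counting error only and no spread between cells or mice. Its shares therefore check the arithmetic of the rule and do not give the error rate of the calls reported here. The TMM factors of edgeR 4.0.16 served as another scale. The members and lists were chosen with earlier results of these data known. Genes named are the members, list genes called the same way at both ages or named for a role, the 5 genes most like each member, Nf1 and the gate genes. A further 7 alternatives and 1 motif were added after the data were seen.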

Additional observations from a re-analysis of the deposited data

Results flagged for a closer look

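The mutant to control ratio in chondrocytes lay on opposite sides of 1 at the 2 ages for 3 genes. For Prg4 the ratio at 12-16 months was 2.38 times that at 3 months, for Cytl1 2.04 times and for Ecrg4 4.38 times. Read the other way, the ratio of old to young lay on opposite sides of 1 in mutants and controls for 4 genes, and the mutant ratio was 2.38 times the control ratio for Prg4, 2.32 times for Clu, 2.04 times for Cytl1 and 4.38 times for Ecrg4. With 1 library per group the difference was not tested, and both readings rest on the same 4 libraries. Of the ratios behind these values, those of Prg4, Cytl1 and Ecrg4 at 3 months, of Ecrg4 at 12-16 months, of Cytl1 in controls and of Prg4, Clu and Ecrg4 in mutants were past 1.5-fold. With cells weighted equally the age ratio in controls was 1.03 for Prg4, 1.18 for Clu and 1.03 for Ecrg4, above 1 as in the mutants. At 12-16 months the mutant to control ratio within chondrocytes with a Runx2 UMI was 0.705 for Prg4 and 0.811 for Cytl1, below 1 as at 3 months. The Prg4 value rests on single cells, and was 0.337 without the cell with most Prg4 of the mutant and 1.14 without that of the control.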

How the results depend on the processing

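Of 200 values of single genes over chondrocytes under the alternatives, 188 kept their direction and 0 of those called turned. In size, 106 stayed within the counting interval of the reported ratio and 94 moved outside it. Both the 188 and the 106 include 20 values of the 2-fold limit, which changes no ratio, so these could not move. With cells weighted equally 15 of 20 moved and with TMM scaling 13 of 20, while with no filter on cells 0 of 20 did. The choice of chondrocytes moved the counts most. Without Runx2-positive cells the number of the 5 genes called was 0 at 3 months, 2 at 12-16 months, 2 for age in controls and 2 for age in mutants, against 5, 1, 1 and 4. With Runx2-positive cells alone it was 4 and 2 for the 2 ages. With the Runx2 proportions of the control, where only the 1.5-fold limit was applied, it was 0 and 1. A 2-fold limit left 3 at 3 months, 0 for age in controls and 3 for age in mutants. Other Acan limits, removal of doublets, TMM scaling, no filter on cells and leaving out the cell with most UMIs of a gene gave the same counts as reported. With cells weighted equally the counts were 4, 1, 1 and 4, and the gene called for age in controls was Smoc2 in place of Cytl1. Co-detection above 1 was seen in 37 of 40 pairs at 2000 UMIs per cell and in 35 without doublets. A split at 3 Runx2 UMIs gave 20 of 20 values higher. No paired analysis was possible because each group has 1 library. The smallest library, the 12-16-month control, holds 89 chondrocytes, and its Runx2-positive values rest on 24 cells. Without the one with most Clu, the mutant to control ratio of Clu in that class turned from a log2 of -0.65 to 0.0036.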
